A study of Homo sapiens with 3 samples.

Results

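The 12q13-q14 domain is a 4 Mb stretch of the long arm of chromosome 12 from 56 to 60 Mb (hg19) that holds CDK4 and CTDSP2. Its members were all peaks that lay between these limits in the H3K27ac and H3K4me3 lists of the established cell line H2087, derived from a human lung adenocarcinoma. There were 147 H3K27ac peaks of 24096 and 141 H3K4me3 peaks of 18585, or 288 of 42681 in all. The domain was selected on the number, width and significance of its peaks in these same lists, which earlier results had shown to be high, so the values below describe it and no test was made on them.

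Chromatin immunoprecipitation followed by sequencing was carried out in untreated H2087 cells using antibodies to histone H3 with acetylated lysine 27 (H3K27ac) or trimethylated lysine 4 (H3K4me3). Each mark was represented by 1 library (n = 1), and no value has a replicate. The input library, the third sample of the study, was not analysed here, and no DNA copy number was measured in the files used. Intervals in brackets are exact 95% intervals, which take in the error of counting alone, as if neighbouring peaks were independent.

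H3K4me3 is deposited mainly at the starts of active genes. H3K27ac marks active promoters and active enhancers, which can lie far from the genes they act on. CDK4 encodes the cyclin D-dependent kinase that phosphorylates the retinoblastoma protein in G1, and the chromosome segment around it is known as a recurrent amplicon of human tumours, lung adenocarcinoma included.

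To show the sequence under the main findings, the bases next to 3 marked gene starts and at the centres of 2 strong H3K27ac peaks far from any protein-coding gene start were read from GRCh37 (hg19). Capitals mark CACGTG (the E-box core) or GGGCGG (the GC box, CCGCCC on the other strand). CCGGAAG (the ETS core) and TGANTCA (the AP-1 site) were also searched on both strands. A match is a description of the letters, not a bound site. Bases annotated as untranslated region were left out, which shortened the CDK4 window to 163 of its 300 bases.
CDK4, upstream, minus strand, chr12:58146231-58146393: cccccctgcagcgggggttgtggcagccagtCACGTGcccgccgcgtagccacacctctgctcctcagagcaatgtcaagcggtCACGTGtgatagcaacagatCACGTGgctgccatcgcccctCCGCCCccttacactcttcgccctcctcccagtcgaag
CTDSP2, upstream, minus strand, chr12:58240513-58240812: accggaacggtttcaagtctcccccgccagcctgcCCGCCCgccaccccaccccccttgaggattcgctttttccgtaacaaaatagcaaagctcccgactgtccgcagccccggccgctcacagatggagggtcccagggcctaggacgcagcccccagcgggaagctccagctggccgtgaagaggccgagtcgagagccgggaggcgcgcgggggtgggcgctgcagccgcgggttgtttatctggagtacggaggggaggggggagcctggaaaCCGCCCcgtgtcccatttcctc
ATP23, upstream, plus strand, chr12:58335050-58335349: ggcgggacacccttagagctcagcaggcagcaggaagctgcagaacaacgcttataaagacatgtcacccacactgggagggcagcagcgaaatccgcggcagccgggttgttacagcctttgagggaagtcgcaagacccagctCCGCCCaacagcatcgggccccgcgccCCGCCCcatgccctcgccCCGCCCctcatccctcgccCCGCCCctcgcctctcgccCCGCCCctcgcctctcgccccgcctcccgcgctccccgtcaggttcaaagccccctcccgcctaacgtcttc
Centre of the peak at 58282528, plus strand, chr12:58283264-58283563: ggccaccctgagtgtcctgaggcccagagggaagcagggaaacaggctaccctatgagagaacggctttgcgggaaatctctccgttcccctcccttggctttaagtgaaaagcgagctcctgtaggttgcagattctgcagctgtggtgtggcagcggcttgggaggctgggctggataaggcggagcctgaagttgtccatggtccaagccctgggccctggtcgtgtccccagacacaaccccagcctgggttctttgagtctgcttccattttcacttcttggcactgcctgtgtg
Centre of the peak at 58705776, plus strand, chr12:58706371-58706670: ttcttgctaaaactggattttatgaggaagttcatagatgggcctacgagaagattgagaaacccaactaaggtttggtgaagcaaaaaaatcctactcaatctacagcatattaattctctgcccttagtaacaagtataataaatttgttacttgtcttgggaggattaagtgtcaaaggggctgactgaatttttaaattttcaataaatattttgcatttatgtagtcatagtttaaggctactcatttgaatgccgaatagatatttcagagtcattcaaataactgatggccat

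The full 300 bases upstream of CDK4 contained 4 copies of CACGTG, of which 3 lie in the printed stretch, and 3 GC boxes. Of 20140 windows of this length upstream of protein-coding genes, 8.88% had at least 1 CACGTG and 7 (0.0348%) had 4 or more. The CTDSP2 window had 2 GC boxes and the ATP23 window 5, and at least 1 was present in 60.4% of all upstream windows. GC content was 67.3% upstream of CDK4, 67.7% upstream of CTDSP2 and 68.7% upstream of ATP23. Neither mark had a peak over the 300 bases upstream of CDK4, since both CDK4 peaks began inside the gene. In the CTDSP2 window, 236 bases lay under the H3K27ac peak and 226 under the H3K4me3 peak.

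The centres of these 2 distant H3K27ac peaks had none of the 4 motifs. The share of all 24096 H3K27ac peaks with a match in the central 300 bases was 22.9% for the GC box, 5.06% for CACGTG, 5.03% for TGANTCA and 2.69% for CCGGAAG. GC content at these centres was 58.3% and 33.3% in the order printed. Over all 147 H3K27ac peaks of the domain, 25.2% (18.4 to 33.0) had a GC box at the centre against 23.4% (21.1 to 25.9) of the 1234 in the rest of chromosome 12. TGANTCA was present in 7.48% (3.79 to 12.99) against 4.62% (3.52 to 5.94). CACGTG was present in 2.72% (0.746 to 6.82) against 5.59% (4.38 to 7.02), and CCGGAAG was present in 3.40% (1.11 to 7.76) against 3.16% (2.26 to 4.30). The intervals overlapped for all 4 motifs. For H3K4me3, CACGTG was present in 3.55% (1.16 to 8.08) of the peaks of the domain against 6.04% (4.64 to 7.70), again with overlap.

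Peaks were denser in the domain than on the rest of the chromosome for both marks. H3K27ac peaks numbered 36.75 per Mb against 9.76 in the other 126.5 Mb of known sequence, a ratio of 3.77 (3.15 to 4.47). H3K4me3 peaks numbered 35.25 per Mb against 7.86, a ratio of 4.49 (3.73 to 5.36). Protein-coding gene starts were also dense, at 25.25 per Mb against 7.42, a ratio of 3.40 (2.74 to 4.18). Among peaks over 3 kb from any such start, the ratio was 2.75 (2.12 to 3.53) for H3K27ac and 4.18 (2.98 to 5.73) for H3K4me3. When the span from 58 to 58.5 Mb was removed, the domain's ratio was 2.69 (2.16 to 3.33) for H3K27ac and 3.24 (2.57 to 4.02) for H3K4me3.

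The density was uneven across the 16 steps of 250 kb. A step was called dense when it had more peaks than the 95th percentile of the 507 steps in the rest of chromosome 12, which was 11 for H3K27ac and 8 for H3K4me3. By this rule 5 steps were dense for H3K27ac, where 4.93% of the steps in the rest of the chromosome were dense, and 6 for H3K4me3, where 4.34% were dense. Because peak density was the reason for choosing the domain, nothing is read from these counts. The step at 58 to 58.25 Mb held 30 H3K27ac peaks, 35 H3K4me3 peaks and 15 gene starts, and had more H3K4me3 peaks than any other step of the chromosome. The next step, 58.25 to 58.5 Mb, held 25 H3K27ac and 17 H3K4me3 peaks but only 1 protein-coding gene start, that of ATP23. By number of H3K27ac peaks these 2 steps ranked 4 and 6 on the chromosome. The highest was 53.25 to 53.5 Mb, with 61 H3K27ac and 29 H3K4me3 peaks, followed by 52.5 to 52.75 Mb, with 60 and 27. Within the domain, the steps at 58 to 58.25 Mb and 58.25 to 58.5 Mb are the longest run of neighbouring dense steps for H3K27ac. The span from 58 to 58.5 Mb was thus set apart with these same peaks in view, and its values are description only.

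**Figure D1:**
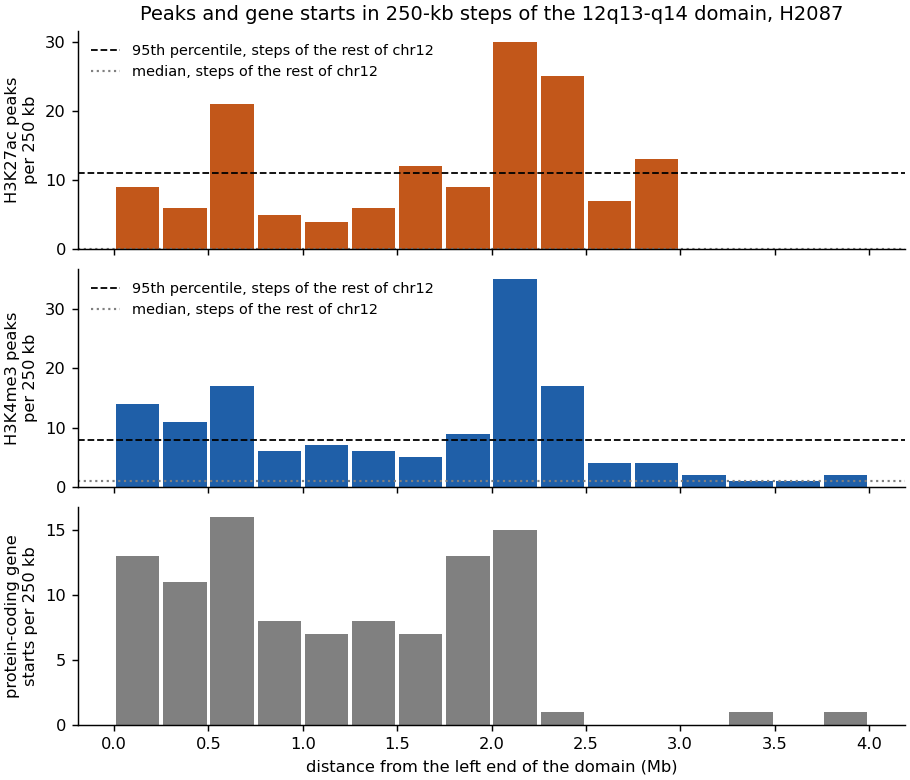
Number of H3K27ac peaks, H3K4me3 peaks and protein-coding gene starts (bars) in each 250-kb step, by distance from the left end of the domain in Mb; the dashed and dotted lines are the 95th percentile and the median of the 507 steps in the rest of chromosome 12, and each mark has 1 library. The highest bars, 30 H3K27ac and 35 H3K4me3 peaks, stand over a step with 15 gene starts, and the next step has 25 and 17 peaks over 1 gene start.

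Gene-dense steps in the left part of the domain also passed the threshold. At 56.5 to 56.75 Mb, 16 gene starts came with 21 H3K27ac and 17 H3K4me3 peaks. H3K4me3 was dense at 56 to 56.25 Mb with 14 peaks, at 56.25 to 56.5 Mb with 11 and at 57.75 to 58 Mb with 9. H3K27ac was dense at 57.5 to 57.75 Mb with 12 peaks over 7 gene starts and at 58.75 to 59 Mb with 13 peaks over none. The right end was nearly empty, with 0 H3K27ac and 6 H3K4me3 peaks between 59 and 60 Mb.

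Each peak carries a −log10 q, the significance the authors' peak caller gave it within its own list, which is not a level that can be compared between the marks. The median in the domain was 3.36 (2.82 to 3.83) for H3K27ac against 2.82 in the rest of the chromosome, and 3.64 (3.20 to 3.98) for H3K4me3 against 3.08. The values varied along the domain. Between 56 and 58 Mb the medians were 2.45 (2.09 to 3.17) and 3.11 (2.70 to 3.60). In the span from 58 to 58.5 Mb they were 5.56 (3.53 to 7.14) and 5.91 (4.64 to 8.18).

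Among the steps of chromosome 12 with at least 5 peaks, 58.25 to 58.5 Mb ranked 2 of 89 by median −log10 q for H3K27ac (5.88) and 2 of 82 for H3K4me3 (7.50). The step at 58 to 58.25 Mb ranked 3 for H3K27ac (5.47) and 6 for H3K4me3 (5.18). By contrast, the densest step of the left part, at 56.5 to 56.75 Mb, ranked 20 and 31, with medians of 3.25 and 3.61.

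Peaks of −log10 q 10 or more were rare in both lists, at 0.344% of H3K27ac and 1.32% of H3K4me3 peaks. The domain held 12 of the 83 such H3K27ac peaks (14.5%) and 18 of the 245 such H3K4me3 peaks (7.35%). High values were the reason for the choice, so nothing is read from these shares. All 30 lay between 58 and 59 Mb, and none of the 72 H3K27ac and 75 H3K4me3 peaks between 56 and 58 Mb reached 10. The highest there were 6.94 for H3K27ac and 6.40 for H3K4me3. The H3K4me3 peaks of 10 or more began at 58025947, over B4GALNT1, and ended at 58820997, a span of 795 kb, and the H3K27ac peaks began at 58144634, over CDK4, and ended at 58821275, a span of 677 kb.

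**Figure D2:**
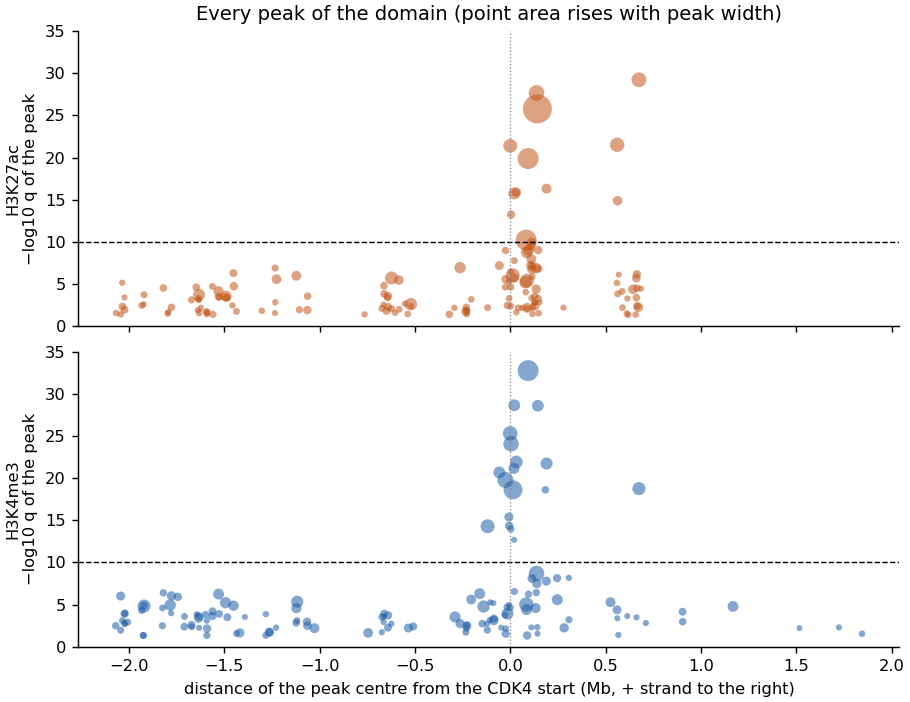
The −log10 q of each of the 147 H3K27ac and 141 H3K4me3 peaks of the domain (points, area rising with peak width) against the distance of the peak centre from the CDK4 start in Mb; the dashed line is a −log10 q of 10 and the dotted line the CDK4 start. All 12 H3K27ac and 18 H3K4me3 points above the line lie between 58 and 59 Mb, and no point between 56 and 58 Mb exceeds 6.94 and 6.40.

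Median widths were also largest from 58 to 58.5 Mb, but their intervals overlapped those of the other stretches. H3K27ac peaks had a median width of 304 bp (275 to 353) in the domain and 296 bp (288 to 303) in the rest of the chromosome, and H3K4me3 peaks 372 bp (312 to 434) and 313.5 bp (302 to 334). From 58 to 58.5 Mb the medians were 393 bp (274 to 564) and 447 bp (317 to 672). Across the domain the share of peaks at least 1 kb wide was 8.84% (4.79 to 14.6) for H3K27ac, or 13 of 147, where 1.28% of the list was that wide. For H3K4me3 it was 9.93% (5.54 to 16.1), or 14 of 141, against 2.25% of the list. Across the domain, peaks with more than 1 summit made up 19.0% (13.05 to 26.3) and 27.7% (20.5 to 35.8), against 7.70% and 9.46% in the rest of the chromosome. Both traits varied along the domain. Between 58 and 59 Mb, 33.3% and 46.7% had more than 1 summit, and between 56 and 58 Mb 4.17% and 14.7%. Peaks at least 1 kb wide made up 13.3% and 20% in the first of these stretches and 4.17% and 2.67% in the second. In the rest of the chromosome 2.67% and 2.82% were that wide.

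Nearness to gene starts changed along the domain. Between 56 and 58 Mb, 80.6% (69.5 to 88.9) of H3K27ac and 96.0% (88.8 to 99.2) of H3K4me3 peaks lay within 3 kb of a protein-coding gene start. From 58 to 58.5 Mb the shares were 36.4% (23.8 to 50.4) and 44.2% (30.5 to 58.7). Such starts numbered 41.5 per Mb in the first of these stretches and 32 per Mb in the second. Between 58.5 and 59 Mb no protein-coding gene starts. None of the 20 H3K27ac and 8 H3K4me3 peaks there could lie near one, so nothing is read from that share. For the whole domain the shares were 53.1% (44.7 to 61.3) and 68.8% (60.5 to 76.3), against 32.9% of all H3K27ac and 65.5% of all H3K4me3 peaks, and against 35.8% and 66.5% in the rest of the chromosome.

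**Figure D3:**
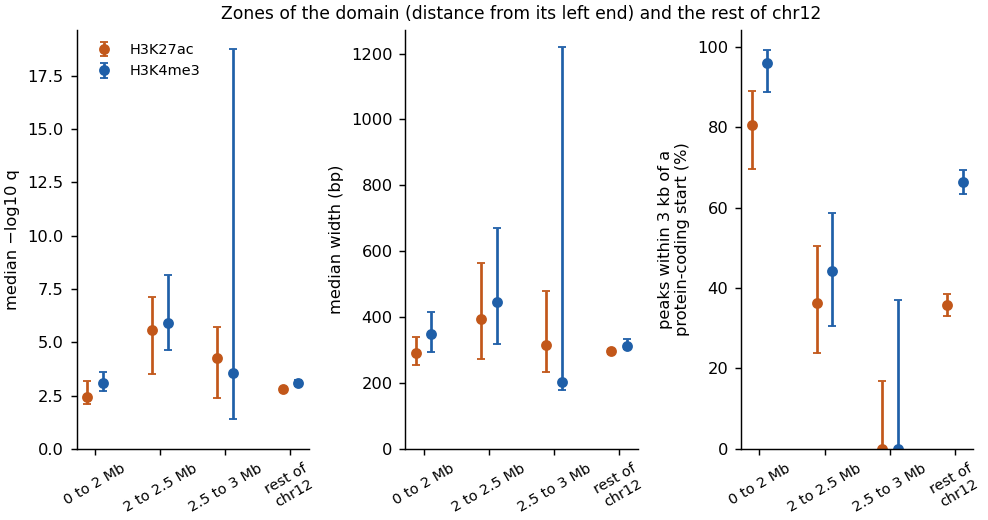
Median −log10 q, median width in bp and percentage of peaks within 3 kb of a protein-coding gene start (points, with exact 95% intervals as bars) for 3 zones of the domain, given by distance from its left end, and for the rest of chromosome 12. The zone at 2 to 2.5 Mb (58 to 58.5 Mb) has medians of 5.56 and 5.91. The share near gene starts is 80.6% and 96.0% in the left zone. In the zone at 2.5 to 3 Mb it is 0 by position, since no protein-coding gene starts there, and its bars carry no meaning. Only 8 H3K4me3 peaks lie in that zone, which makes the bars long.

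In the span from 58 to 58.5 Mb, the peaks near gene starts and those far from them were set side by side. The 20 H3K27ac peaks within 3 kb of a start had a median −log10 q of 6.23 (3.29 to 13.2), and the 35 farther away 5.20 (3.27 to 6.88). The 23 H3K4me3 peaks near a start had a median of 14.3 (6.24 to 21.2), and the 29 farther away 4.42 (2.73 to 6.43). The intervals overlapped widely for H3K27ac, and only at their ends for H3K4me3.

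Peaks of the marks were called overlapping when they shared at least 1 bp. Of the H3K27ac peaks, 63 (42.9%, 34.7 to 51.3) overlapped an H3K4me3 peak, against 29.3% (26.7 to 31.9) in the rest of chromosome 12 and 24% of the list. These intervals were separate. The number and width of peaks were reasons for choosing the domain and bear on overlap, so nothing is read from the difference. Conversely, 63 H3K4me3 peaks (44.7%, 36.3 to 53.3) had an H3K27ac partner, against 36.5% (33.5 to 39.6) in the rest of the chromosome and 31.1% of the list, and here the intervals overlapped. The share of H3K27ac peaks with an H3K4me3 partner was 43.1% (31.4 to 55.3) between 56 and 58 Mb, 52.7% (38.8 to 66.3) from 58 to 58.5 Mb and 15% (3.21 to 37.9) from 58.5 to 59 Mb.

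At gene starts the marks were counted over the 101 protein-coding genes that begin in the domain. An H3K27ac peak lay within 1 kb of 50 starts (49.5%, 39.4 to 59.6) where 25.2% of all 20163 starts had one, and an H3K4me3 peak within 1 kb of 62 (61.4%, 51.2 to 70.9) where 41.3% had one. In the rest of the chromosome the shares were 28.6% and 45.7%. Because peak density was a reason for choosing the domain, nothing is read from the differences. Neighbouring starts can also share a peak, as those of SARNP and ORMDL2 do, while the intervals take starts as independent. Both marks were present at 41 starts (40.6%, where 20.4% of all starts had both), H3K4me3 alone at 21, H3K27ac alone at 9 and neither at 30. Outside 58 to 58.5 Mb, 44.7% (33.9 to 55.9) of 85 starts had H3K27ac and 56.5% (45.3 to 67.2) had H3K4me3, with median −log10 q values of 3.14 and 3.57.

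The strongest peaks at gene starts were in the 0.5 Mb span with CDK4 and CTDSP2. Of its 16 starts, 12 had an H3K4me3 peak of −log10 q 10 or more and 8 had such an H3K27ac peak, where 0.952% and 0.223% of all starts did. These starts were served by 10 and 6 separate peaks, since METTL1, EEF1AKMT3 and the readthrough gene ENSG00000257921 share theirs. None of the other 85 starts of the domain had a peak of 10 or more for either mark. The span was set apart with its peaks in view, so nothing is read from the difference between its starts and all others. DNA copy number was not measured in the files used, and its part in these values was not tested. The values given belong to the start of the canonical transcript. At the outermost annotated starts, 9 of the 16 had such an H3K4me3 peak and 7 such an H3K27ac peak.

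Near the left limit of this span, DDIT3, GLI1 and ARHGEF25 had modest peaks, while B4GALNT1 had a strong H3K4me3 peak. Values before the limit were mixed. MARS1 had an H3K27ac value of 6.94 and PIP4K2C an H3K4me3 value of 6.30. At DTX3 and MBD6 the H3K4me3 values were 2.74 and 2.49. DDIT3, a stress-induced transcription factor, had −log10 q values of 2.21 for H3K4me3 and 2.22 for H3K27ac. GLI1, the hedgehog pathway transcription factor, had 2.16 for H3K27ac at 0.986 kb from its start and no H3K4me3 peak within 1 kb. At ARHGEF25, a guanine nucleotide exchange factor, H3K4me3 reached 4.77 and no H3K27ac peak was within 1 kb. B4GALNT1, a ganglioside synthase that begins 21.8 kb farther along, had an H3K4me3 value of 14.3 and an H3K27ac value of 2.18. Between these genes, from 4.77 to 14.3, lie the starts of the protein-coding gene ENSG00000287908 and the long noncoding RNA gene ENSG00000224713, which had no peak of either mark within 1 kb.

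OS9, which encodes a lectin of endoplasmic reticulum-associated degradation, had 20.7 for H3K4me3 and 7.19 for H3K27ac. AGAP2, a GTPase-activating protein, had only 3.93 and 2.45 at its start. A wider H3K4me3 peak of 19.8 lay over its exons 18 and 19, where the start of the antisense RNA AGAP2-AS1 had an H3K27ac value of 8.97 as well. TSPAN31, a tetraspanin, had 15.4 for H3K4me3 and 5.28 for H3K27ac.

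CDK4 (ENSG00000135446, minus strand, start at 58146093) had the highest H3K27ac value of the 101 protein-coding starts in the domain. Its H3K27ac peak, chr12:58144634-58146027, covered exons 1 to 4 with a −log10 q of 21.4 and 3 summits, the seventh highest of the list. The H3K4me3 peak, chr12:58144515-58146054, covered exons 1 to 5 with a value of 25.3. Both ended just inside the gene, 0.066 kb and 0.039 kb from the start whose upstream bases are printed above. At the outermost annotated start of CDK4 the highest values were those of its neighbour MARCHF9. MARCHF9, a membrane-bound ubiquitin ligase next to CDK4, had 24.1 for H3K4me3 and 13.2 for H3K27ac.

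Beyond CDK4, the marks differed at CYP27B1, the enzyme that makes active vitamin D. A 2665 bp H3K4me3 peak of 18.6 covered its start and exons 1 to 5, while the nearest H3K27ac peak lay 1.38 kb away with a value of 6.02. METTL1, a methyltransferase of transfer RNA, and EEF1AKMT3, which methylates the elongation factor eEF1A, start 0.509 kb apart on opposite strands. Their shared peaks had 28.7 for H3K4me3 and 15.7 for H3K27ac. TSFM, a mitochondrial translation elongation factor, had 21.9 and 15.9. AVIL, an actin-binding protein, was the exception with no peak of either mark within 1 kb.

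CTDSP2, a phosphatase of the RNA polymerase II tail, starts 94.4 kb beyond CDK4. Its H3K4me3 peak, chr12:58237466-58240738, was 3273 bp wide with 9 summits and had a −log10 q of 32.8, the highest H3K4me3 value of the domain. The H3K27ac peak over the same exon 1 had 19.9. ATP23, a mitochondrial metalloprotease 94.8 kb farther on, had 21.7 and 16.3, and is the last strongly marked protein-coding start. At its outermost annotated start H3K27ac had 2.82 and H3K4me3 no peak within 1 kb. The next start is that of LRIG3, a transmembrane protein with leucine-rich repeats, at a distance of 979 kb. It had 4.79 for H3K4me3 and no H3K27ac peak within 483 kb.

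**Figure D4:**
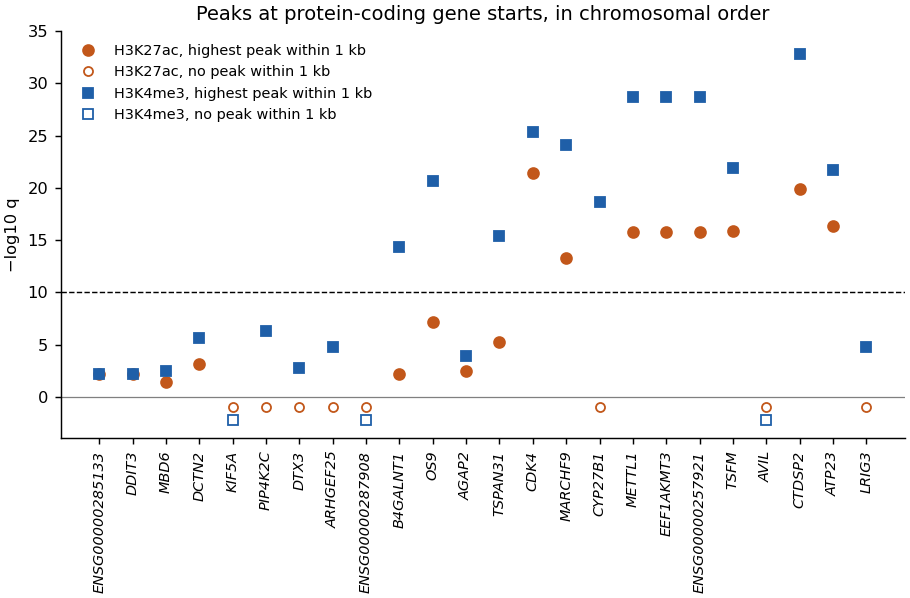
Highest −log10 q within 1 kb of 24 protein-coding gene starts in chromosomal order, for H3K27ac (circles) and H3K4me3 (squares); open symbols below 0 mark starts without a peak, the dashed line is a −log10 q of 10, and values of the marks are on separate scales of significance. From B4GALNT1 (14.3) to ATP23 (21.7) all squares but that of AGAP2 (3.93) lie above 10, AVIL has no peak, and LRIG3 at the right has 4.79 and no H3K27ac peak.

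The gene of the miRNA miR-26a-2 lies in CTDSP2, at chr12:58218392-58218475. No peak lay within 1 kb of it, and the nearest were 6.95 kb away for H3K27ac and 10.7 kb for H3K4me3. Its mature sequences are given from RefSeq (GRCh38.p14) with the seed, bases 2 to 8, in capitals, because this miRNA is processed from an intron of one of the most strongly marked genes.
hsa-miR-26a-5p: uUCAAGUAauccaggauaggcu
hsa-miR-26a-2-3p: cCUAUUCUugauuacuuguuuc

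Sites away from protein-coding starts carried strong H3K27ac peaks too. Of the 12 H3K27ac peaks of 10 or more, 6 lay within 3 kb of a protein-coding start and 6 farther away, while 14 of the 18 H3K4me3 peaks lay within 3 kb. Between CTDSP2 and ATP23, 23 H3K27ac peaks within 10 kb of each other formed a cluster, chr12:58253934-58298896, with 16.5 kb under peaks and 9 H3K4me3 peaks. It overlaps the start of the long noncoding RNA gene ENSG00000245651, where the H3K4me3 peak had a −log10 q of 28.6 and the H3K27ac peak 25.8. GIHCG, a long noncoding RNA gene that starts 5.22 kb before ATP23, had an H3K4me3 value of 18.6 and its nearest H3K27ac peak at 5.34 kb.

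Clusters were formed from H3K27ac peaks no more than 10 kb apart, and 26 of 4606 clusters with 2 or more peaks lay in the domain. The second by length under peaks, chr12:58225424-58241861, held 9 peaks over the first part of CTDSP2 and 11.9 kb under peaks. The third, chr12:58131244-58187349, held 15 peaks and 14 H3K4me3 peaks with the starts of 9 genes from AGAP2 to TSFM, and 7.72 kb under peaks. In the whole list these ranked 11 and 45.

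The remaining strong clusters lay between 58.7 and 58.9 Mb, where no protein-coding gene starts. One, chr12:58803351-58830898, had 9 H3K27ac peaks and 4.59 kb under peaks, and ranked 129. It contains the peak at 58819697, with the highest −log10 q of the H3K27ac list (29.2) and an H3K4me3 partner of 18.8. Of the 32-base words of this peak, 47.7% occur more than once in the genome, against 0 of those at CDK4, and the part of such repeats in its value was not tested. The other, chr12:58705070-58714842, had 5 H3K27ac peaks and 2.80 kb under peaks. Its highest H3K27ac peak, at 58705776, had 21.5 with 18.5% of words repeated, and lay 370 kb from the start of ATP23. Here the H3K4me3 partner had only 4.39.

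The lists of genes by role gave mixed counts, to be read beside the share of all starts with a peak within 1 kb (25.2% for H3K27ac, 41.3% for H3K4me3 and 20.4% for both) and that of the domain (49.5%, 61.4% and 40.6%). These lists were chosen with earlier results of these data known, and nothing particular to a list is read from its count. Among 5 genes of the cell cycle and replication, 3 had H3K27ac and 2 had H3K4me3 within 1 kb. Without CDK4, 2 of 4 had H3K27ac and 1 had H3K4me3. CDK2, the kinase of late G1 and S phase, had an H3K4me3 value of 4.95 and no H3K27ac peak. PA2G4, a regulator of growth and ribosome assembly, had an H3K27ac value of 4.61 and no H3K4me3 peak, and TIMELESS, a replication fork factor, had an H3K27ac value of 1.81 only. PRIM1, the primase subunit, had neither mark within 10 kb.

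All 6 genes of the translation list had H3K4me3 and 4 had H3K27ac, and without TSFM and METTL1, which lie between 58 and 58.5 Mb, 4 of 4 and 2 of 4 did. Apart from TSFM and METTL1, the highest H3K27ac value was at MARS1, the methionyl-tRNA synthetase, with 6.94, which was the maximum among the 85 starts outside 58 to 58.5 Mb. RPS26 and RPL41, both ribosomal protein genes, had H3K4me3 values of 2.38 and 3.40. NACA, a nascent chain-binding protein, had 2.20.

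Of 8 STAT and cytokine genes, 2 had H3K27ac and 3 had H3K4me3, close to the shares of all starts. STAT6, the transcription factor of interleukin-4 signalling, had 3.73 for H3K4me3 and 2.25 for H3K27ac, and its neighbour NAB2, a corepressor of EGR factors, 3.95 and 4.79. STAT2, of interferon signalling, had an H3K4me3 value of 3.54 only. Neither mark lay within 1 kb of the other 5 genes, IL23A, INHBC, INHBE, TAC3 and GDF11, all genes of secreted ligands. At GDF11 an H3K4me3 peak of 2.92 lay 1.001 kb from the start, just beyond this distance. At its outermost annotated start IL23A had an H3K4me3 value of 1.64.

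In the receptor list, 3 of 4 genes had both marks. LRP1, an endocytic receptor, had a 1208 bp H3K27ac peak of 5.71 that began 0.006 kb from its start, the tenth widest H3K27ac peak of the domain. ERBB3, a receptor tyrosine kinase, had 3.12 for H3K27ac and 2.59 for H3K4me3. ITGA7, a laminin-binding integrin subunit, had 1.39 and 6.02. GPR182, a G protein-coupled receptor, had no peak within 1 kb.

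Of 8 genes of mitochondria and metabolism, 4 had H3K27ac and 4 had H3K4me3, with both at 2, and the H3K27ac share was close to that of the domain. CS, the citrate synthase gene, had 6.29 for H3K27ac and 4.87 for H3K4me3. SHMT2, the mitochondrial serine hydroxymethyltransferase, had a 1088 bp H3K27ac peak of 2.59 and no H3K4me3 peak within 1 kb. SLC16A7, a monocarboxylate transporter near the right limit, had 1.55 for H3K4me3 only.

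Chromatin and transcription genes were marked at 4 of 6 starts by H3K27ac and at 5 by H3K4me3, and without CTDSP2 at 3 and 4 of 5. BAZ2A, a subunit of the nucleolar remodelling complex, had 5.98 for H3K27ac and 4.58 for H3K4me3. SMARCC2, a subunit of the SWI/SNF complex, had 4.70 and 4.20. Among 6 genes of trafficking and the cytoskeleton, 4 had H3K27ac and 3 had H3K4me3. RAB5B, an early endosome GTPase, had 6.05 for H3K4me3 and 2.22 for H3K27ac, and DCTN2, a dynactin subunit, had 5.61 and 3.17.

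The list of genes around CDK4 had H3K27ac at 13 of 16 starts and H3K4me3 at 14, with medians of 13.2 and 21.2 among the marked starts. Over all starts of the domain the medians of marked starts were 3.40 and 3.94. Of this list, GLI1, DDIT3 and LRIG3 lie outside the span from 58 to 58.5 Mb, and their values were all below 5.

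In all, 12 protein-coding genes had no peak of either mark within 10 kb of the start. The share of all starts at such a distance was not counted, so nothing is read from this number. Within 1 kb, neither mark was present at 30 of the 101 starts here and at 10853 of all 20163. Among the 12 genes without a peak within 10 kb were the retinol and steroid dehydrogenase genes HSD17B6, SDR9C7 and RDH16. These lie together with PRIM1 in the longest stretch of the left part without H3K27ac, 298 kb. The others were OR10P1, MMP19, SUOX, IKZF4, TAC3, MYO1A, ENSG00000285625 and ENSG00000258830. IKZF4 is among them by its canonical start alone, since an H3K4me3 peak of 5.92 lay on its outermost annotated start. OR10P1 encodes an olfactory receptor, TAC3 the neurokinin B precursor and MYO1A an intestinal brush border myosin. The lists hold no read counts, so the absence of a peak may also mean that reads were too few there, and this was not tested.

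By annotation, 61 of the 147 H3K27ac peaks overlapped an exon of a protein-coding gene, 30 an intron, 11 a noncoding gene only and 45 no gene. For H3K4me3 the counts were 70, 35, 11 and 25 of 141. Of the 45 intergenic H3K27ac peaks, 36 lay between 58 and 59 Mb and 9 between 56 and 58 Mb. Of peaks near a start, the centre was downstream of it for 74.4% (63.2 to 83.6) of H3K27ac and 80.4% (71.1 to 87.8) of H3K4me3 peaks, against 73.1% and 78.2% in the rest of the chromosome.

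The limits of the domain fell in stretches with few peaks, which are common on this chromosome. Of the 507 steps of 250 kb in the rest of chromosome 12, 263 held no H3K27ac peak and 220 no H3K4me3 peak. A gap at a limit thus does not make the limit a boundary. The last H3K27ac peak inside was at 58830706, with a −log10 q of 4.45, and the next outside at 62654297, with 1.89, so that 3.82 Mb had none. At the left limit the first H3K27ac peak inside (1.55) and the nearest outside (2.59) were 750.0 kb apart. For H3K4me3 the nearest inside and outside had 2.49 and 3.87 at the left limit, 793.6 kb apart. At the right limit they had 1.55 and 1.85 and were only 195.9 kb apart.

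The domain around MYC and PVT1 on chromosome 8 was taken at the same length, 4 Mb, and set beside it, though it too was known for its peaks. It held 222 H3K27ac and 77 H3K4me3 peaks, against 147 and 141 here. Only 2.70% (0.998 to 5.79) of its H3K27ac peaks lay within 3 kb of a protein-coding start, against 53.1% (44.7 to 61.3) in the 12q13-q14 domain. Of its H3K4me3 peaks, 81.8% (71.4 to 89.7) overlapped H3K27ac, against 44.7% (36.3 to 53.3). Counted the other way the order was reversed. Of its H3K27ac peaks, 27.5% (21.7 to 33.9) overlapped H3K4me3, against 42.9% (34.7 to 51.3) here. The intervals did not overlap in any of these comparisons. The part of the unequal numbers of peaks of the marks in the overlap shares was not tested. The domain around MYC and PVT1 has only 4 protein-coding gene starts, against 101 here. The difference in nearness to starts cannot be told apart from gene density. Peaks of −log10 q 10 or more numbered 7 for each mark there and 12 and 18 here.

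The label of the cells was checked against marker genes outside the domain. Of 10 genes of lung adenocarcinoma and alveolar epithelium, 6 had both marks within 1 kb of the start, where 20.4% of all starts did. KRT7, KRT8, KRT18, EPCAM and CDH1 were among the 6, but they are genes of many epithelia and say little about lung. The remaining marked gene was NKX2-1, with 2.82 for H3K27ac and 2.95 for H3K4me3. The surfactant genes SFTPB, SFTPA1 and SFTPC and the protease gene NAPSA had neither mark. No neuroendocrine marker (of 4), fibroblast marker (of 3) or matched endothelial marker (of 1) had either mark, while 1 of 3 squamous markers (SOX2) had both marks and 1 of 4 blood markers (CD68) had H3K27ac. The H3K4me3 value at SOX2 was 1.43. On chromosome 12, MDM2, the p53 ubiquitin ligase of a separate segment that is often amplified with CDK4 in tumours, had 4.26 for H3K4me3 and 4.65 for H3K27ac.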

How the data were processed

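Peak lists of the H3K27ac and H3K4me3 libraries (1 each) were analysed. Per the submitters' processing notes, tools included bcl2fastq 1.8.4, Bowtie 1.1.1, SAMtools 1.2, Picard 1.118, MACS2 2.1.0 and ChIPseeker 1.6.6, with hg19. Threshold, control and duplicate handling are not given in the sources used here. The last column of the deposited lists has no header. It was taken as the significance of a summit, −log10 q, computed by the authors' peak caller within each list. This reading rests on the values (smallest 1.303 and 1.306, against 1.301 for a q of 0.05). Depth is unknown from the lists.

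Intervals listed once per summit were reduced to distinct peaks (25275 and 20282 entries to 24096 and 18585), each with its highest −log10 q, using Python 3.11.15, pandas 2.3.3, numpy 2.4.6 and scipy 1.17.1. Gene starts were canonical transcript starts of GENCODE 44 on GRCh37 (98.6% of 20163 protein-coding genes, the outer start otherwise), adopted after the outermost start of CDK4 was seen to lie away from its canonical start. Peaks within 3 kb were near a start and starts with a peak within 1 kb marked. Shares have Clopper-Pearson, density ratios conditional binomial and medians order-statistic 95% intervals. Interval functions were tested on simulated data. Genes were named by lists of roles. Named peaks were the 10 widest and 10 highest per mark, the longest clusters, dense steps and those at the limits. Members, lists and motifs were chosen with earlier results of these data known. Alternatives were other limits, thresholds, distances, gene starts and merging.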

Additional observations from a re-analysis of the deposited data

How the results depend on the processing

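The alternatives numbered 56, of which 12 were chosen after seeing the data, and 32 stayed within the interval of the reported value (within 1.5 times for steps). In 39 of the 40 that could be set beside the rest of chromosome 12, the domain stayed the higher. No support is read from this tally, since width and −log10 q were reasons for choosing the domain. Some gaps were also small, such as 54.6% against 52.1% for H3K4me3 peaks within 1 kb of a start. The only alternative in which the domain was lower was the share of H3K4me3 peaks near a start with limits of 57 and 59 Mb, 55.2% against 67.7%. These limits moved that share for H3K27ac to 41.5% and the H3K27ac density ratio to 5.34. A −log10 q of at least 5 moved the density ratios to 9.89 (H3K27ac) and 6.65 (H3K4me3) and the marked starts to 15.8% (9.33 to 24.4) and 18.8% (11.7 to 27.8), against 5.32% and 14.3% in the rest of chromosome 12. For H3K4me3 this interval takes in the rest, and outside 58 to 58.5 Mb the share was 8.24%. Merging within 1 kb moved the H3K27ac density ratio to 2.997 and the H3K4me3 median width to 667 bp. Entries as deposited moved the median widths to 473 bp and 574 bp. Comparison with all other chromosomes moved the H3K4me3 density ratio to 5.51, and removal of 58 to 58.5 Mb moved the ratios to 2.69 and 3.24. Overlap shares moved to 25.2% and 26.2% with reciprocal overlap of 50%, and to 60.5% and 58.2% with the other mark within 1 kb. Shares near a start moved to 42.2% and 54.6% at 1 kb and to 63.3% and 77.3% with the starts of all genes. Marked starts for H3K4me3 moved to 71.3% at 3 kb. Dense H3K27ac steps covered 0.8 Mb of the domain in steps of 100 kb and 1.25 Mb in those of 250 kb. Removal of peaks made mostly of repeated words left the density ratios, median widths and median −log10 q within their intervals, and outer gene starts left the shares near a start and of marked starts within theirs. At single genes outer starts changed the H3K27ac value of 20 and the H3K4me3 value of 25 of the 101 genes. The H3K27ac value at CDK4 moved from 21.4 to 13.2 and its H3K4me3 value from 25.3 to 24.1. With outer starts ERBB3, BAZ2A, STAT6 and MARS1 had neither mark within 1 kb, CYP27B1 and NACA no H3K4me3, and ITGA7 5.15 for H3K27ac and 3.11 for H3K4me3. TSPAN31 had 2.45 and 3.93, and AGAP2 neither mark. No paired analysis was possible because the comparison rests on 1 library of each mark. With 1 library, no value has a replicate, and weak peaks could not be judged by depth or input, which were not analysed here.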
